A study of Dahlia pinnata with 6 samples.

Results

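miR159 and miR319 are related families of plant microRNAs, small RNAs that guide an Argonaute protein to complementary messenger RNAs, which are then cleaved or held back from translation. They were examined here as the 2 rows of that exact name among the 47083 rows of a small RNA count table from dahlia petals, of which 116 carried microRNA names and 46967 were contigs of a Trinity transcript assembly. The petals came from Yuino, a bicolor dahlia genotype, grown in a greenhouse, and the red, pigmented region was cut apart from the white region that lacks pigment, both of the same genotype and with no treatment named in the labels. Each part gave 3 small RNA libraries, and the labels do not say whether libraries came from separate plants or from pooled petals, so the p-values speak only of the scatter among these libraries, part of which may be technical. The study asked whether flavonoids, the class of compounds to which the red pigment belongs, restrain the Dicer-like enzyme DCL4 across all of its siRNA products. The contigs carry no gene names in the table, so petal marker genes and the messenger RNA targets of the 2 families were not analysed here.

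miR159 directs cleavage of GAMYB-like transcripts, which encode MYB transcription factors of the gibberellin response, known in Arabidopsis for their part in anther development and in growth when they are left unchecked. miR319 directs cleavage of a class of TCP transcripts, whose products limit cell proliferation in leaf margins, and in Arabidopsis a miR319 gene is also known from mutants with narrow, short petals. The mature sequences of the families are alike over most of their length and are thought to share an origin. In Arabidopsis miR319 can also act on MYB transcripts, while miR159 acts almost wholly on them. Other microRNA families, animal ones included, carry longer numbers that begin alike, and the names in this table held at most 6 characters, so either row could also hold reads of a longer family number cut to the same letters. The sources used here do not say how reads that match both families were divided.

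The tabulated reads ranged from 3277753 to 3662222 per library, and microRNA names took 4.5% to 5.0% of them in red and 3.65% to 3.87% in white. Red replicate 1 stood apart, since every row of the table had at least 1 read in it while the other libraries had 11093 to 12808 rows at 0. The main differences between the parts are given again without that library. Leaving it out does not change which rows the table holds, each of which had a read in it. Levels are given as CPM, read counts scaled to a common total, which is either all tabulated reads of the library or its microRNA-named reads. Ligation and amplification favour some small RNAs over others, so a level of one microRNA against another is a ratio of reads and not of molecules.

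miR159 was an abundant microRNA in both petal parts and stood lower in white in every library. It had 50511, 43828 and 40645 reads in red replicates 1, 2 and 3 and 28365, 27323 and 26303 reads in white replicates 1, 2 and 3. Scaled to tabulated reads these were 13792, 12467 and 12400 CPM in red and 8076, 8110 and 7725 CPM in white. The parts did not overlap, and the lowest red library lay well above the highest white one. The red mean was 12887 ± 785.3 CPM and the white mean 7970 ± 212.9 CPM (n = 3 per part, SD), 38.1% lower. The same separation held in 14.3% of the 7001 tested rows on this scale, so it is a common pattern here. A two-sided exact permutation test of the log2 values gave p = 0.1, the smallest that 3 libraries against 3 allow, and 0.233 after Benjamini-Hochberg adjustment over 7 such comparisons.

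Set against microRNA reads alone, the difference of miR159 was smaller but still separated the parts. The miR159 row took 29.0%, 27.7% and 24.8% of the microRNA reads in red replicates 1, 2 and 3. It took 21.6%, 20.9% and 21.2% in white replicates 1, 2 and 3, where the libraries lay close together. By counting error alone the 95% Wilson interval of any one of these shares was narrow, for example 28.8% to 29.2% in red replicate 1 and 21.4% to 21.8% in white replicate 1. PCR reads are not independent molecules, so such intervals cover counting error only. The mean share was 27.2% ± 2.1 in red and 21.2% ± 0.33 in white (n = 3 per part, SD), with an exact permutation p of 0.1, again the smallest possible. Without red replicate 1 the white minus red difference in mean log2 CPM of miR159 was -0.64 on tabulated reads and -0.30 on microRNA reads, against -0.69 and -0.35 with it. On this scale each red library lay above each white one in 3.49% of tested rows. Such shares move with the scaling. The median log2 fold change (white over red) of tested rows was 0.18 on this scale and -0.16 on tabulated reads. miR159 is itself a large part of the microRNA total. With both families taken out of it, miR159 was 27.8% lower in white and the parts still did not overlap, as in 5.74% of tested rows.

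**Figure D1:**
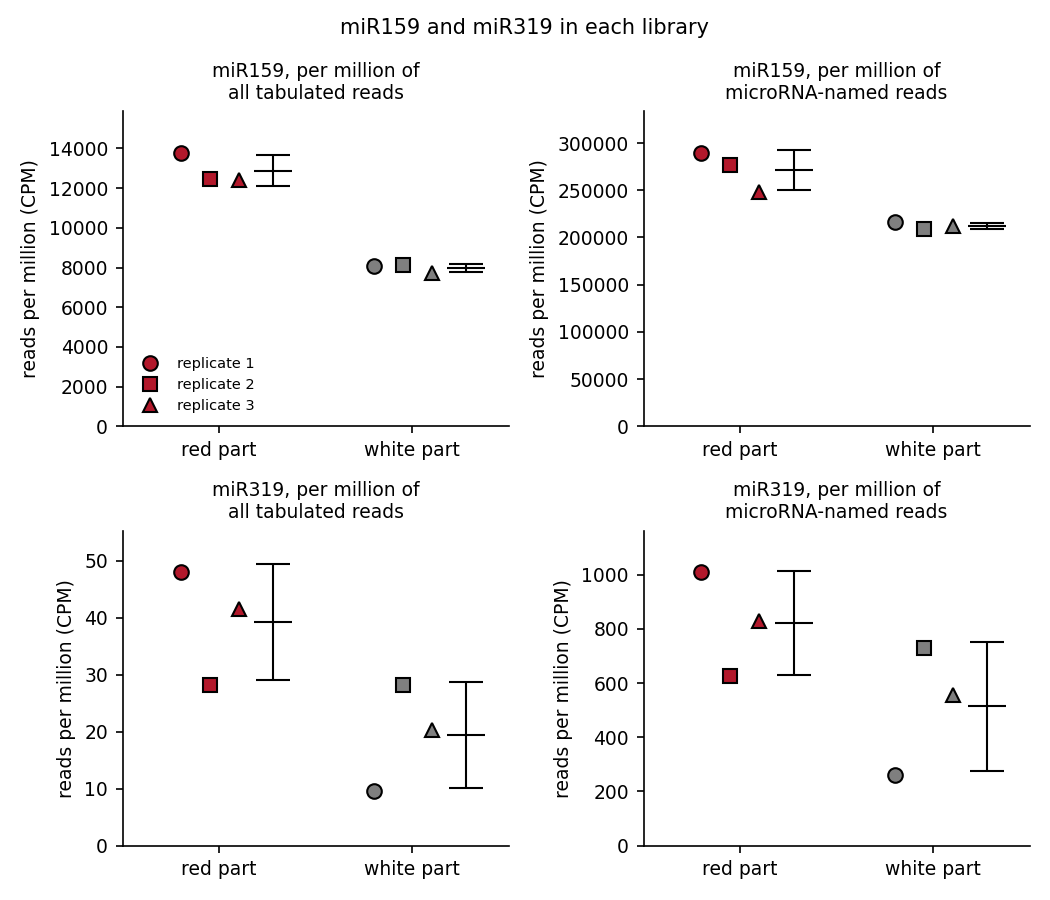
Levels of miR159 (top) and miR319 (bottom) in each library, as CPM of all tabulated reads (left) and of microRNA-named reads (right), with replicates by symbol and the mean ± SD (n = 3) beside them. The red and white libraries of miR159 do not overlap on either scale, from 12400 CPM upward in red against at most 8110 CPM in white on the left, while those of miR319 overlap on both.

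miR319 was a rare row, with a lower mean in white but wide scatter within each part. It had 176, 99 and 136 reads in red replicates 1, 2 and 3 and 34, 95 and 69 reads in white replicates 1, 2 and 3. Scaled to tabulated reads these were 48.1, 28.2 and 41.5 CPM in red and 9.68, 28.2 and 20.3 CPM in white. White replicate 1 was the lowest library, and white replicate 2 stood at the level of red replicate 2, so the parts touched. The red mean was 39.2 ± 10.1 CPM and the white mean 19.4 ± 9.3 CPM (n = 3 per part, SD), 50.6% lower, with an exact permutation p of 0.2 (0.1 is the smallest possible). On the microRNA total the red mean was 821.7 ± 192.8 CPM and the white mean 514.4 ± 237.5 CPM (n = 3 per part, SD), 37.4% lower (exact permutation p = 0.2). Without red replicate 1 the difference in mean log2 CPM of miR319 was -0.95 on tabulated reads and -0.61 on microRNA reads, against -1.11 and -0.77 with it. On the microRNA total white replicate 2, at 728.3 CPM, lay above red replicate 2, at 624.8 CPM.

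The scatter of miR319 within a part was larger than counting error, as is usual for separate libraries. The exact 95% Poisson interval of its 34 reads in white replicate 1 ran from 23.5 to 47.5 reads, and that of the 95 reads in white replicate 2 from 76.9 to 116.1 reads. In red, the interval was 80.5 to 120.5 reads for replicate 2 and 151.0 to 204.0 reads for replicate 1. The variation of miR159 between libraries, far above counting error as well, was small in relation to its level. The biological coefficient of variation that edgeR fitted was 17.0% for miR159 and 33.5% for miR319, against a median of 23.6% over the 34 tested microRNA rows. Of those rows, 1 had a lower coefficient than miR159 and 5 a higher one than miR319. edgeR draws such coefficients toward values shared across rows, so these ranks do not measure the scatter of either row alone.

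Neither family passed the main test over the whole table, which did not use the replicate numbers. By edgeR's quasi-likelihood test with TMM scaling, fitted on all 7001 tested rows, 74 rows or 1.06% passed an adjusted p of 0.05, and 0.528% passed as lower in white. The log2 fold change of white over red was -0.53 for miR159, with an SE of 0.12 (edgeR adjusted p = 0.067). On this TMM scale its mean was 12547 ± 596.3 CPM in red and 8701 ± 1045 CPM in white (n = 3 per part, SD). White libraries thus scattered more than on tabulated reads. For miR319 the log2 fold change was -0.83, with an SE of 0.39 that reaches the value of miR159 (edgeR adjusted p = 0.44). A more negative log2 fold change was found for 790 of the 7001 tested rows than for miR159 and for 221 than for miR319. The sum of both rows, which does not depend on how shared reads were divided, gave -0.53 ± 0.12 SE (edgeR adjusted p = 0.067), since miR319 added little to it.

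With the replicate number as a block, miR159 was called lower in white at -0.53 ± 0.13 SE (edgeR adjusted p = 0.019), as were 2.59% of tested rows under that fit. White stood below red in each same-numbered pair, by 41.4%, 35.0% and 37.7% for replicates 1, 2 and 3 on tabulated reads. miR319 was not called with the block (-0.90 ± 0.49 SE, edgeR adjusted p = 0.47), and its pairs were uneven. White was lower by 79.9% in replicate 1 and by 51.2% in replicate 3, while replicate 2 gave a white to red ratio of 1.00.

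miR159 was also called with no filter on low counts (edgeR adjusted p = 1.2e-04), as was miR319 (edgeR adjusted p = 0.027), where 0.272% of all rows were called lower. That fit took in 47083 rows, and their median log2 fold change was -0.13. Scaling by library totals called miR159 too (log2 fold change -0.69 ± 0.16 SE, edgeR adjusted p = 0.026; 1.54% of rows lower), where the median of all rows itself shifted to -0.16. With scaling to the microRNA total the median of all rows was 0.18 and miR159 stood at -0.35 ± 0.18 SE (edgeR adjusted p = 0.38). Relative to the median of all tested rows, miR159 lay at -0.52 under TMM, at -0.53 under library totals and at -0.53 under the microRNA total. Relative to the same medians miR319 lay at -0.82, -0.86 and -0.86. A scaling shifts all rows nearly alike, so these distances are nearly fixed by construction and test nothing. In these bulk samples, fewer cells that make a microRNA and less of it per cell cannot be told apart.

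Single libraries mattered more for miR319 than for miR159. Without white replicate 1 the log2 fold change of miR319 was -0.48 ± 0.28 SE, and without white replicate 2 it was -1.31 ± 0.31 SE (edgeR adjusted p = 0.62 and 0.085). Without red replicate 1 it was -0.68 ± 0.46 SE, and miR159 stood at -0.51 ± 0.14 SE (edgeR adjusted p = 0.69 and 0.14). The log2 fold change of miR159 kept within -0.63 to -0.46 when any 1 library was left out, and it was called without white replicate 2 (edgeR adjusted p = 0.039, where 0.336% of rows were called lower).

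**Figure D2:**
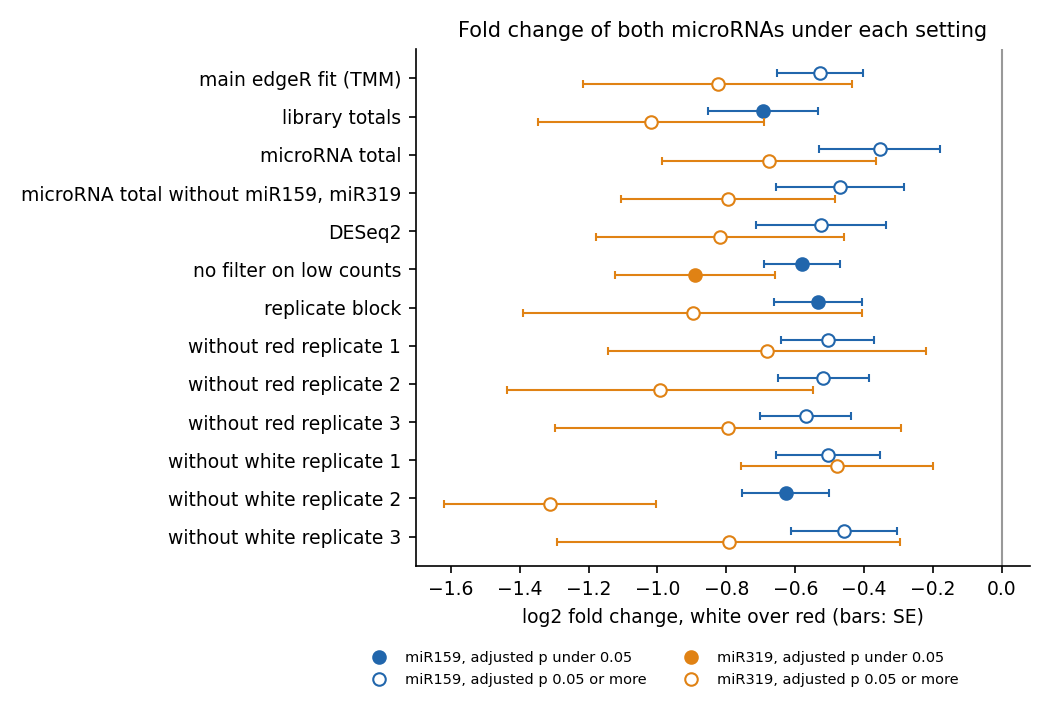
Log2 fold change (white over red, with SE bars) of miR159 and miR319 under each setting, with filled points where the adjusted p was under 0.05. Every value of both families lies below 0, from -0.69 to -0.35 for miR159 and from -1.31 to -0.48 for miR319.

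The ratio of the families differed more among the white libraries than between the parts. There were 287.0, 442.7 and 298.9 reads of miR159 per read of miR319 in red replicates 1, 2 and 3. In white replicates 1, 2 and 3 there were 834.3, 287.6 and 381.2. White replicate 1 was the high library, with an exact 95% interval of 596.9 to 1205, and the other white libraries lay within the red range. The log2 ratio averaged 8.39 ± 0.35 in red and 8.82 ± 0.80 in white (n = 3 per part, SD), a difference of 0.42 (exact permutation p = 0.6). When each white library was set against each red one, 9 pairs in all, the difference in log2 ratio ran from -0.62 to 1.54, and 6 pairs were higher in white. That difference is also the difference between the 2 families' changes, so these libraries leave room for miR319 having changed more than miR159 or less. Without red replicate 1 the difference was 0.31, and without white replicate 1 it was -0.022. Put the other way, miR319 reads amounted to 0.120% to 0.348% of miR159 reads over the 6 libraries, so a small share of miR159 reads assigned to the miR319 row would be enough to move its count. That share was not tested.

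**Figure D3:**
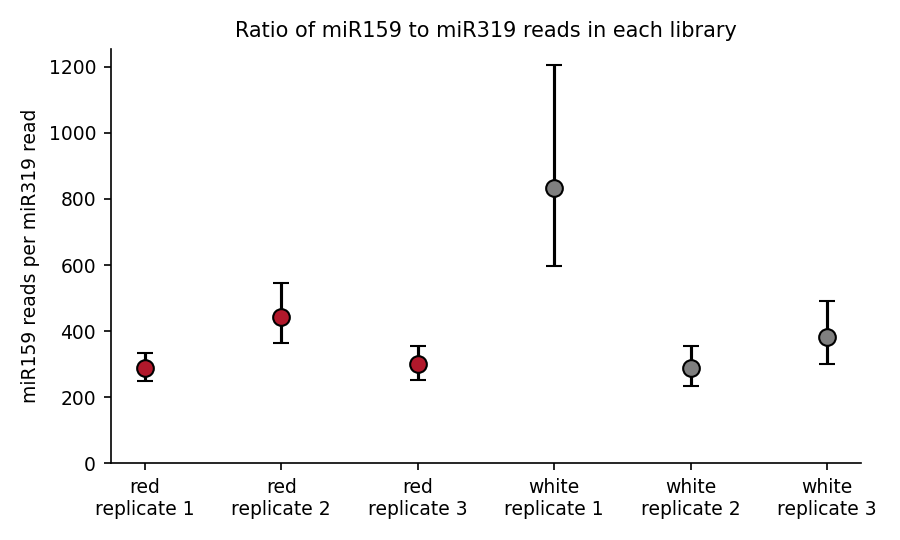
Reads of miR159 per read of miR319 in each library, with exact 95% binomial intervals that cover counting error only. White replicate 1 stands at 834.3 and the other 5 libraries lie between 287.0 and 442.7, red and white mixed.

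Both families had lower means in white, but within a part they did not follow each other closely. On tabulated reads, red replicate 1 lay above its part's mean for both families, by 0.10 for miR159 and 0.33 for miR319 on the log2 scale. Red replicate 2 lay below for both, at -0.046 and -0.44. White replicate 2 lay above for both, at 0.025 and 0.67. The other 3 libraries lay on opposite sides, the widest being white replicate 1, at 0.019 for miR159 and -0.87 for miR319. Pearson's r of the 2 families' log2 CPM over the 6 libraries was 0.75 on tabulated reads and 0.55 on microRNA reads. Exact permutation of all libraries gave p = 0.061 and p = 0.26, or 0.12 and 0.26 after Benjamini-Hochberg adjustment over these 2 scales. However, miR159 separates the libraries into their parts, so both values of r rest largely on the difference between parts. Without red replicate 1 the r on tabulated reads was 0.65. With the part means removed r was 0.23 on tabulated reads and -0.095 on microRNA reads, where 1 of 6 libraries lay on the same side for both families. Two-sided exact permutations of libraries within parts, 36 arrangements in all and added after the data were seen, gave p = 0.5 and p = 0.83 for these values, unadjusted. A p of this size does not show that the families vary independently.

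**Figure D4:**
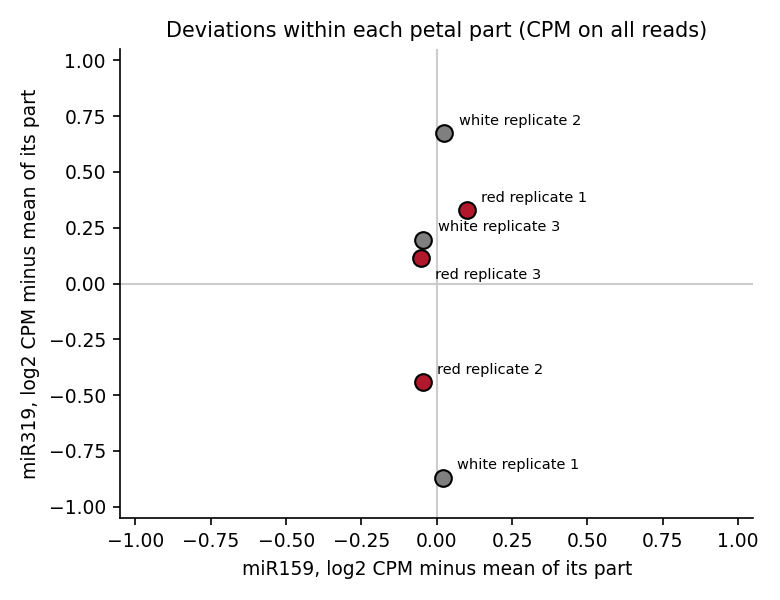
Deviation of each library from the mean of its part, in log2 CPM of tabulated reads, for miR159 (x axis) and miR319 (y axis) drawn to the same scale. The miR159 deviations lie between -0.054 and 0.10, while those of miR319 run from -0.87 to 0.67, and 3 of the 6 libraries fall on the same side of both means.

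Other microRNAs tracked miR159 more closely than miR319 did. Among the 32 other tested microRNA rows with a read in every library, miR319 was the 10th most like miR159 by Pearson's r of log2 CPM over the 6 libraries. The closest were miR166 (r = 0.95), a regulator of the HD-ZIP transcription factors that set upper and lower organ faces, miR168 (r = 0.94), which targets the Argonaute gene AGO1, and miR394 (r = 0.90), which targets an F-box transcript of the shoot meristem. The same 3 rows came first on the microRNA total, with miR319 at rank 7. For miR319 the closest on tabulated reads were miR168 (r = 0.82), miR170 (r = 0.79), which targets GRAS genes of the HAM group, and miR166 (r = 0.77). There miR159 was at rank 6 (r = 0.75). On the microRNA total they were miR168 (r = 0.71), miR-27 (r = 0.70) and miR170 (r = 0.67), with miR159 at rank 6 (r = 0.55). The miR-27 row had 694 reads in red replicate 1 and 2 to 21 in the other libraries. All these values share the libraries and their totals, so a difference between the parts common to several rows raises them together.

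In the order of levels, miR159 held the second place among microRNA names in each of the 6 libraries, and miR319 ranked between 16 and 23. miR396, which targets growth-regulating factor genes, lay above miR159, with 17973 ± 1782 CPM in red tissue and 16989 ± 470.6 CPM in white (n = 3 per part, SD). miR166 lay below it, at 8811 ± 1399 and 4941 ± 334.8 CPM. The red libraries of miR159 lay below all those of miR396 and above all those of miR166, and so did the white ones. miR319 had no such distance from its neighbours. By mean level miR371 came next below it, at 32.5 ± 5.7 CPM in red tissue and 16.2 ± 6.2 CPM in white (n = 3 per part, SD). Of the plant names listed for comparison, the nearest were miR399 above it and miR394 below it. miR399, a family of phosphate homeostasis, had 37.7 ± 18.7 CPM in red tissue and 30.2 ± 10.6 CPM in white. miR394 had 20.1 ± 6.7 and 9.91 ± 1.72 CPM (n = 3 per part, SD).

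miR159 made up a large part of the lower microRNA total of white tissue. All microRNA names together averaged 47541 CPM of tabulated reads in red and 37520 CPM in white, 10021 CPM less. miR159 accounted for 4916 CPM of this, or 49.1%, and miR166 for 38.6%. miR319 accounted for 0.198%. All rows other than miR159 and miR166 stood 1235 CPM lower together, or 12.3%. This is a net value, in which rows higher in white offset rows lower in white, so the shares given here depend on both. These parts of a difference are a description, and a change in contig reads would alter every CPM of this kind.

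Of 30 other plant microRNA names listed for comparison, 25 were in the table and 20 were tested. Names were counted singly, so miR165 and miR166 counted apart, as did miR170 and miR171. Of these, 13 had lower and 7 higher values in white, against 3564 lower and 3437 higher of the 7001 tested rows. The one that passed was miR166 (log2 fold change -0.67 ± 0.12 SE, edgeR adjusted p = 0.022), where 0.528% of tested rows passed as lower. Its call was lost when red replicate 1, white replicate 1 or white replicate 3 was omitted (edgeR adjusted p = 0.058, 0.084 and 0.11) and with scaling to the microRNA total, with both families in it or not (0.22 and 0.14). The median log2 fold change of the 20 tested names was -0.21, against -0.18 over all 34 tested microRNA rows and -0.01 over all tested rows. The log2 fold change of miR159 lay below those of all but 6 of the 20 names and that of miR319 below all but 2. With the block, miR164, which targets NAC genes of organ boundaries, and miR166 were called lower and miR167, which targets auxin response factor genes, higher. Over the 7001 tested rows, that fit called 181 lower and 157 higher.

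**Figure D5:**
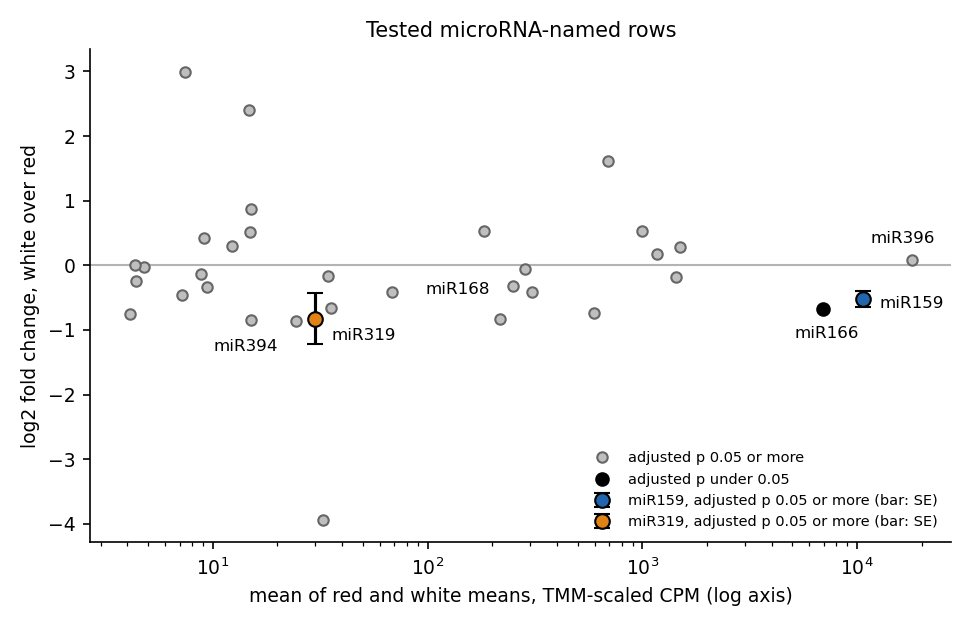
Log2 fold change (white over red) against mean level for the 34 tested microRNA rows, with SE bars for miR159 and miR319. miR159 and miR166 stand side by side among the most abundant rows at -0.53 and -0.67, while miR319 lies among the rare ones at -0.83.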

How the data were processed

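The values the authors deposited are raw counts, each the number of small RNA reads assigned to a row in a library. RNA was prepared with Trizol and sequenced after a NEBNext small RNA preparation, per the labels' protocols. The submitters' processing notes name cutadapt and Bowtie2, and the sources used here give no versions, counted read lengths or rule for reads that match several rows.

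Titles gave the groups. The whole table was fitted with edgeR 4.0.16 in R 4.3.3 (quasi-likelihood, TMM, robust, minimum count of 10, no pairs), with Benjamini-Hochberg adjustment over 7001 tested rows and a threshold of 0.05. The SE is the log2 fold change over the square root of F. The code was tested on simulated data. Single values had two-sided exact permutation tests, with scipy 1.17.1 for intervals. Replicate numbers were left out of the main fit and entered as a block in an alternative fit. The block was kept because same-numbered replicates correlated across parts in log2 values (prior count 2), less their part means. These correlations were 0.20, 0.29 and 0.20 for replicates 1, 2 and 3, above the limit of 0.1. The labels give the replicate numbers no meaning. Alternatives were library totals, the microRNA total with and without both families, DESeq2 (1.42.0), no filter, the block and each library left out. The text also names the 3 rows most like each family, and from the comparison list the called names and the neighbours in level. The families, lists and tests were chosen with earlier results of these data known.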

Additional observations from a re-analysis of the deposited data

How the results depend on the processing

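Both families kept their direction under every alternative run. In 12 alternatives of the edgeR comparison, the adjusted p of miR159 ranged from 1.2e-04 to 0.38 and that of miR319 from 0.027 to 0.71. miR159 became a call with library totals (log2 fold change -0.69), no filter on low counts (-0.58), the replicate block (-0.53) and without white replicate 2 (-0.63). The sum of both families did so with the same values (-0.69, -0.58, -0.53 and -0.63). With 1 library left out miR159 ranged from -0.63 to -0.46 and the sum from -0.63 to -0.46. miR319 became a call with no filter (-0.89, where the median of all rows was -0.13 and 0.272% of rows were called lower). Every row of that fit had a read in red replicate 1. With 1 library left out miR319 ranged from -1.31 to -0.48. The 74 changed rows became 153 with library totals, 135 with the microRNA total, 254 with no filter and 338 with the replicate block, and 35 to 176 with 1 library left out (omitting red replicate 1 gave 46, omitting red replicate 2 gave 176 and omitting white replicate 3 gave 35). DESeq2 called 109 rows and neither family (adjusted p = 0.10 for miR159 and 0.26 for miR319). It gave no adjusted p to 3937 of the 7001 rows, so its adjustment covers fewer rows than that of edgeR. The difference in log2 ratio ranged from -0.022, without white replicate 1, to 0.75 with 1 library left out. The causes were not tested. The block changed no call of miR319. Exact sign-flip tests of the 3 pairs cannot give a p below 0.25. The miR319 row held 34 to 176 reads per library, and its scatter within a part was larger than counting error.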
